A study of Mus musculus with 31 samples.

Results

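The 48 genes described here encode DNA replication proteins, cyclins and cyclin-dependent kinases. They were taken by symbol from a fixed list, all 48 were found among the 41255 gene symbols of both deposited tables, and all 48 passed the filter of a mean value of at least 10 in every comparison. By role they fall into 29 S phase genes, 9 G1 genes and 10 mitotic genes. Their mRNA was measured in Ba/F3 cells, a mouse lymphoid line that depends on interleukin-3, as total mRNA and as polysomal RNA, which is mRNA recovered from gradient fractions with 2 or more ribosomes. All clones carried a short hairpin RNA against endogenous mouse Rpl10 and a retroviral human RPL10 cDNA, either WT or with the R98S mutation, an arginine-to-serine change in a protein of the large ribosomal subunit that recurs in T-cell acute lymphoblastic leukemia. There were 3 clones per genotype, each grown from a single cell, clones 11, 13 and 35 for R98S and 28, 29 and 36 for WT. Each clone was cultured under replicate numbers 1 to 3, which gave 9 R98S and 8 WT libraries of total mRNA and 8 R98S and 6 WT polysomal libraries. Libraries of 1 clone are not independent clones, so p-values measure the spread between these libraries.

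A cell licenses its replication origins in G1 by loading the Mcm2 to Mcm7 helicase with the origin recognition complex, Cdc6 and Cdt1, and fires them in S phase when Cdc45 and the GINS complex join the helicase. D cyclins with Cdk4 or Cdk6, and E cyclins with Cdk2, inactivate the retinoblastoma protein and release E2F transcription factors, which activate many genes of replication and nucleotide synthesis. B cyclins with Cdk1 then drive mitosis together with the Plk1, Aurora and Bub1 kinases, and genes of this later wave are commonly controlled through CHR and CCAAT promoter elements. In Ba/F3 cells D cyclin expression is known to follow interleukin-3 signalling.

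Promoter sequence was looked at first, since it was not used to choose the genes. RefSeq windows of the GRCm38.p6 build, from 250 bases before to 50 bases after the annotated start, were matched by symbol for 38 of the 48 genes, and the first listed entry was used. An E2F-type motif (TTTNNCGC, both strands) was present in 12 of 24 S phase windows, 2 of 6 G1 windows and 1 of 8 mitotic windows, against 5.27% of all 27025 windows. The CHR letters TTTGAA or TTTAAA, on both strands, were found in 7 of 8 mitotic windows and in 6 of 24 S phase windows, against 27.8% of all windows. CCAAT, on both strands, was present in 8 of 8 mitotic and 17 of 24 S phase windows, against 37.9% of all. These are matches of letters in a window, not binding sites. The windows of all genes include genes that were not tested here, and they were not matched for base composition. The following stretches, printed 5′ to 3′ on the strand of the gene with the motif letters in capitals, are examples from S phase and mitotic genes, and they include Mcm6 as a gene with E2F letters whose mRNA level was not called different.
E2f2: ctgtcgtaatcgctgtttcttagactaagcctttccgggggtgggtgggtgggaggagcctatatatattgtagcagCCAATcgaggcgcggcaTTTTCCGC
Pola1: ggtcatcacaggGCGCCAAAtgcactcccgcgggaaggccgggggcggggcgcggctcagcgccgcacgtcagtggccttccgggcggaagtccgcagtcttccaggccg
Mcm6: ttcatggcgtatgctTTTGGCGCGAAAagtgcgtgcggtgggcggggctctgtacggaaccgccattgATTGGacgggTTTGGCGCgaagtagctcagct
Rrm2: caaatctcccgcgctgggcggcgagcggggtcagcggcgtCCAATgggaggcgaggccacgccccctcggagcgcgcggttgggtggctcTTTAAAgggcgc
Cdk1: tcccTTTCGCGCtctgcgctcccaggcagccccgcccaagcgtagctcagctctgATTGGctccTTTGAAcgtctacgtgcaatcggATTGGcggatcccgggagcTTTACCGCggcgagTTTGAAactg
Ccnb2: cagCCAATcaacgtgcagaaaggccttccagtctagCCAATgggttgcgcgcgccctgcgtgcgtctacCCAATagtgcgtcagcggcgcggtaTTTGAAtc

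The stretch of E2f2 lies at chr4:136172184-136172285 on the plus strand and holds a CCAAT 13 bases before the start and E2F letters from base 5 after it. Pola1 (chrX:93632196-93632305, minus strand) carries E2F letters 138 bases before its start. Mcm6 (chr1:128359731-128359830, minus strand) carries E2F letters at 2 places, the first of which holds overlapping matches on both strands, with an inverted CCAAT between them. Rrm2 (chr12:24708164-24708265, plus strand) has a CCAAT 50 bases before the start and TTTAAA at the start itself, and no E2F letters of this form. Of the mitotic genes shown, Cdk1 (chr10:69352918-69353047, minus strand) holds 2 E2F matches, 2 CHR matches and 2 inverted CCAAT within 130 bases, whereas Ccnb2 (chr9:70421543-70421644, minus strand) holds 3 CCAAT and 1 CHR match. The mitotic gene Bub1 was the one without CHR letters and held CCAAT alone. Among the 38 genes with a window, E2F letters occurred in 7 of the 18 that were called lower in R98S total mRNA and in 8 of the 20 that were not called. CHR letters occurred in 8 of the 18 and 7 of the 20, and CCAAT in 14 and 13. These differences were not tested.

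Recovered reads per library ranged from 9338671 to 22059792 in total mRNA and from 8831180 to 20754046 in polysomal RNA. Over the 500 most variable genes of total mRNA, the first principal component separated the genotypes, and R98S clones 13 and 35 of number 2 lay nearest to WT, at 7.27 and 7.79 against 26.4 to 43.1 for the other R98S libraries. The 8 WT libraries lay between -37.4 and -27.3, with WT clone 29 of number 1 nearest to R98S. A WT clone 36 library of number 1 was left out by the study because it grouped with R98S and is not analysed here, so the WT libraries are a selection by profile. Of 16 lymphoid and interleukin-3 receptor markers, 6 had a mean of at least 10 in every group and the other 10 were below it. Of the 6 tested in total mRNA, 3 were called higher and 1 lower. The B cell receptor genes Cd79a and Cd79b were expressed, with means of 943 and 415 in R98S and 841 and 225 in WT total mRNA, and Cd79b rose by 0.87 on the log2 scale (adjusted p = 0.00667, limma), whereas Pax5, Rag1 and Il7r were at or near 0. Csf2rb and Csf2rb2 are closely related receptor subunit genes whose reads may be split between them. They rose from means of 41121 and 30587 in WT to 94858 and 70968 in R98S (limma adjusted p = 1.78e-05 and 1.65e-05). Each had all 9 R98S libraries above every WT library, a separation whose share over all genes is not given here. Ptprc, the gene of the pan-leukocyte antigen CD45, was the lower one and fell by 0.48 (adjusted p = 0.0646, limma). The summed level of 9 myeloid and mast cell markers spanned 199 to 3512 in R98S and 89.9 to 434 in WT total mRNA, and 2 of its 4 tested members were called higher and 1 lower. Cpa3 rose by 3.20 on the log2 scale and Mcpt8 by 2.99 (limma adjusted p = 0.000811 and 0.0766), Lyz2 fell by 2.66 (adjusted p = 0.0132, limma), and Mpo, at 0.29, was not called. That of 6 T cell markers spanned 82.1 to 154 and 38.4 to 245, where Cd3d rose by 1.85 and Cd3g fell by 3.06 (limma adjusted p = 0.000221 and 0.00887) and Lck, at 0.80, was not called. Lyz2 and Cd3g passed the filter through WT, with means of 9.85 and 6.58 in R98S and 50.6 and 57.1 in WT. The sum of 5 stromal markers was far lower. Their part in the results below was not tested.

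The first comparison asked whether the cells with R98S hold different amounts of these mRNAs. In total mRNA, 21 of the 48 genes were lower in R98S and 1 was higher, where a gene is called different at an adjusted p under 0.1 (limma on log2(value + 1), R98S minus WT, adjusted over all 11133 genes tested). Over all genes 15.8% were called lower and 14.5% higher. The genes leaned to the lower side, with 38 of 48 estimates below 0 and a median log2 fold change of -0.24, against a median near 0 over all genes. Mitotic genes were called lower in 7 of 10 cases with a median of -0.47, S phase genes in 12 of 29 cases with a median of -0.22, and G1 genes in 2 of 9 cases with a median of -0.17. Together the 48 genes took 0.797% to 0.923% of the reads in the 9 R98S libraries and 0.966% to 1.25% in the 8 WT libraries, ranges that did not overlap. Without the abundant Mki67 and Top2a, left out after their values were seen, the other 46 took 0.614% to 0.713% and 0.655% to 0.902%, which overlapped, and in polysomal RNA the 48 genes took 0.610% to 0.843% in R98S and 0.727% to 1.01% in WT, which overlapped too. In bulk RNA, fewer cells in a phase of the cycle and less mRNA per cell cannot be told apart.

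**Figure D1:**
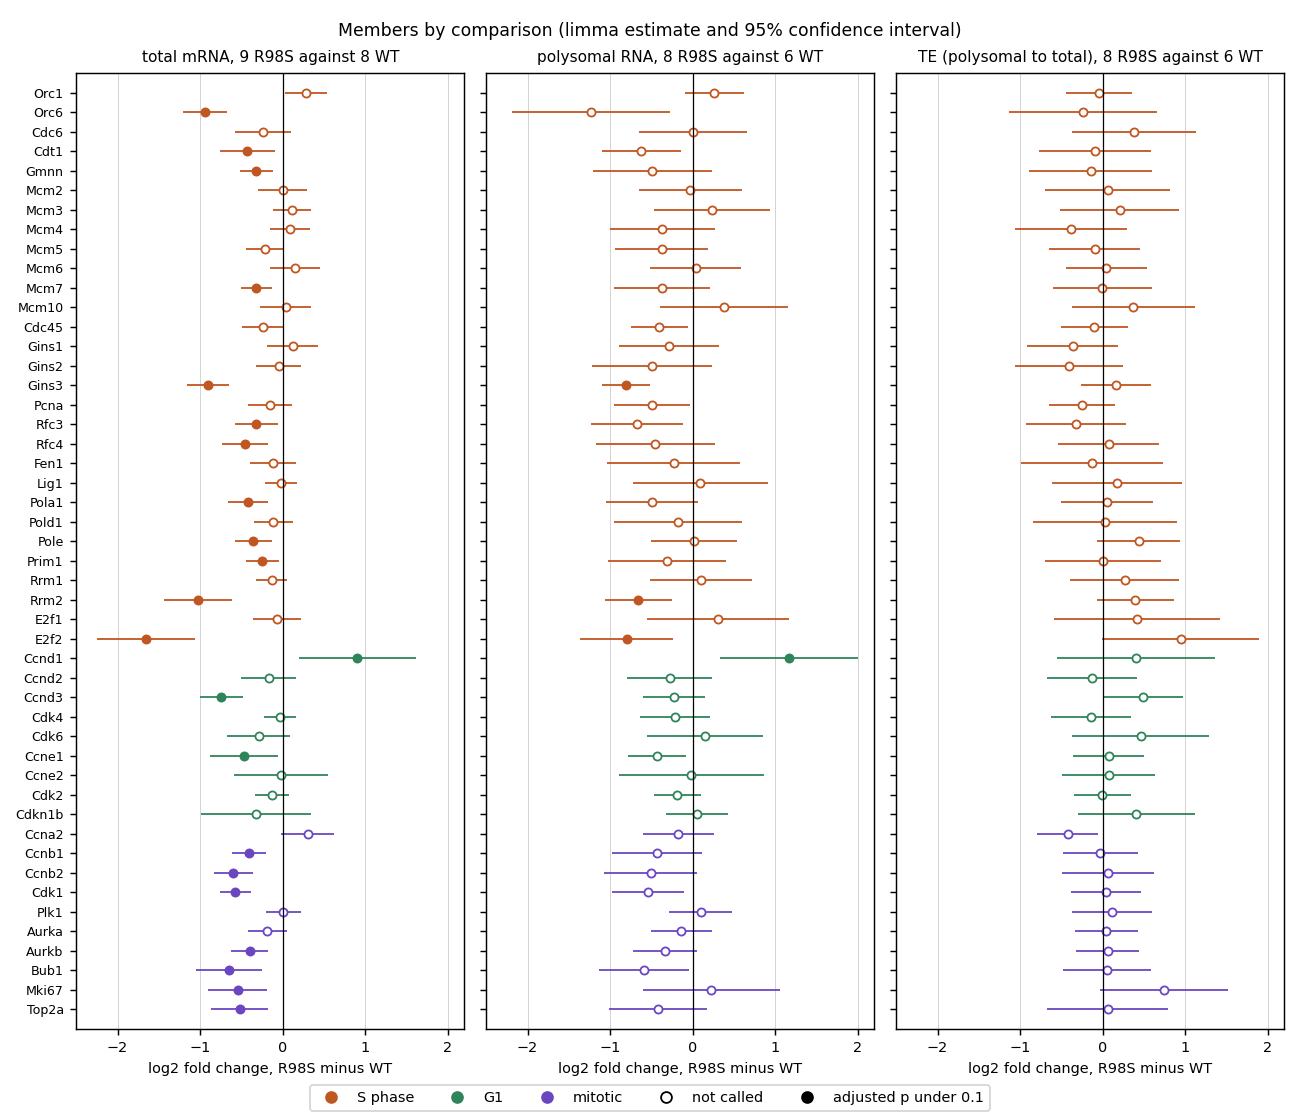
Log2 fold change of R98S against WT (horizontal axis) for each of the 48 genes (vertical axis) in total mRNA, polysomal RNA and TE, with points for the limma estimates and bars for their 95% confidence intervals. Filled points passed an adjusted p of 0.1, with 22 of them for total mRNA, 4 for polysomal RNA and 0 for TE.

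E2f2, an activating E2F factor, had the largest fall of the 48 genes in total mRNA. Its normalized count ranged from 307 to 731 (median 351) in R98S, and 804 to 3884 in WT with a median of 1054. The groups did not overlap, since all 9 R98S libraries lay below every WT library. The mean was 439 ± 159.5 (SD, n = 9) for R98S and 1541 ± 1067 (SD, n = 8) for WT, and the log2 difference was -1.66 (SE 0.28, adjusted p = 0.000442 by limma). The wide WT spread came from WT clones 28 and 29 of number 3, at 3884 and 2287, and within numbers 1, 2 and 3 the difference was -1.55, -0.92 and -2.35. Its relative E2f1, in contrast, spanned 291 to 557 in R98S and 290.1 to 519 in WT, and its log2 fold change of -0.07 (95% interval from -0.36 to 0.22) was not called.

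Of the 11 licensing genes 4 were called lower and 0 higher, where 15.8% and 14.5% of all genes were. Orc6, a subunit of the origin recognition complex, ranged from 739 to 1069 (median 885) in R98S and 1274 to 2428 in WT with a median of 1629.8, again without overlap. Its mean fell from 1731 ± 417 (SD, n = 8) in WT to 885 ± 117 (SD, n = 9) with R98S, with a log2 difference of -0.94 (SE 0.13, adjusted p = 4.15e-05 by limma). The change was of unlike size among partners of the same machine. Cdt1, which loads the helicase, spanned 1394 to 2262 in R98S and 1365 to 3364 in WT and fell by 0.43 on the log2 scale. Its inhibitor geminin, encoded by Gmnn, ranged from 933 to 1444 and from 1079.8 to 1545 and fell by 0.32, with 6 of 9 R98S libraries below every WT library. The Cdt1 call (limma adjusted p = 0.0592) held in 17 of 26 alternatives, and its difference was -0.05 within number 2, -0.27 without WT clone 29 (limma adjusted p = 0.299) and -0.32 without number 1 (limma adjusted p = 0.313). The Gmnn call also held in 17 of 26, and was lost without R98S clone 11, WT clone 28 or 29, or number 2 or 3. Of the helicase subunits Mcm7 alone was called, with 3522 to 4614 in R98S, 4198 to 5979.6 in WT and a fall of 0.32, a call lost without WT clone 28 or 29 or number 1 or 3. The other helicase subunits, Mcm2 to Mcm6, had log2 fold changes from -0.22 for Mcm5 to 0.15 for Mcm6 and were not called. Orc1, at 0.28 (SE 0.12, adjusted p = 0.111 by limma), and Cdc6, at -0.24, were not called either.

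Of the 5 helicase activation genes 1 was called lower, where 15.8% of all genes were, so nothing about the role is read from this count. Gins3, a subunit of the GINS complex, ranged from 324 to 566 (median 433) in R98S and 628 to 1124 in WT with a median of 762. The groups did not overlap and the log2 difference was -0.91 (SE 0.12, adjusted p = 4.17e-05 by limma). Its partners Gins1 and Gins2 were at 0.12 and -0.05, Mcm10 at 0.03 and Cdc45 at -0.24, and none was called. Exons of Gse1 on the opposite strand cover most of the Gins2 exons (67.3% overlap with other genes), so its count is uncertain.

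At the replication fork all 9 estimates were below 0 and 5 genes were called lower, where 15.8% of all genes were. Rfc4 and Rfc3, subunits of the clamp loader, fell by 0.46 and 0.32. Rfc4 spanned 444 to 603 in R98S and 577 to 1125 in WT, with 7 of 9 R98S libraries below all WT libraries, whereas Rfc3 (580.0 to 899.8 against 638 to 1099.6) overlapped more. The polymerase genes Pola1 (1544 to 2239 against 1774 to 3596), Pole (1302 to 2072 against 1678 to 2591) and Prim1 (1239.8 to 1496 against 1273 to 2145) fell by 0.42, 0.36 and 0.25. Several of these calls rested on single clones or numbers. Prim1 (limma adjusted p = 0.0711) kept its call in 11 of 26 alternatives and in 1 of 9 omissions of a clone or a number, with -0.16 (limma adjusted p = 0.309) without WT clone 28. Rfc3 (limma adjusted p = 0.0738) kept it in 14 of 26, with -0.06 within number 2 and -0.21 (limma adjusted p = 0.328) without WT clone 29. Pole lost it without R98S clone 11, WT clone 28 or 29, or number 3, Rfc4 without R98S clone 11 or number 3, and Pola1 without number 3. Pcna, the sliding clamp, was not called, with 2650.4 to 4021 in R98S, 2205 to 4648 in WT and a log2 fold change of -0.15 (95% interval from -0.42 to 0.11). Fen1, Lig1 and Pold1 lay between -0.12 and -0.02. The exons of Fen1 overlap other genes over 84.2% of their length and its values were only 58.1 to 108, which leaves its count uncertain.

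The subunits of ribonucleotide reductase, which makes deoxynucleotides, parted from each other. Rrm2, the small subunit, ranged from 2239 to 4252 (median 2834) in R98S and 4135 to 12436 in WT with a median of 5207. Of the 9 R98S libraries 8 lay below every WT library, and the log2 difference was -1.02 (SE 0.20, adjusted p = 0.0011 by limma). Within numbers 1, 2 and 3 it was -0.84, -0.80 and -1.32. Rrm1, the large subunit, had a log2 fold change of -0.14 (95% interval from -0.33 to 0.05) and was not called.

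**Figure D2:**
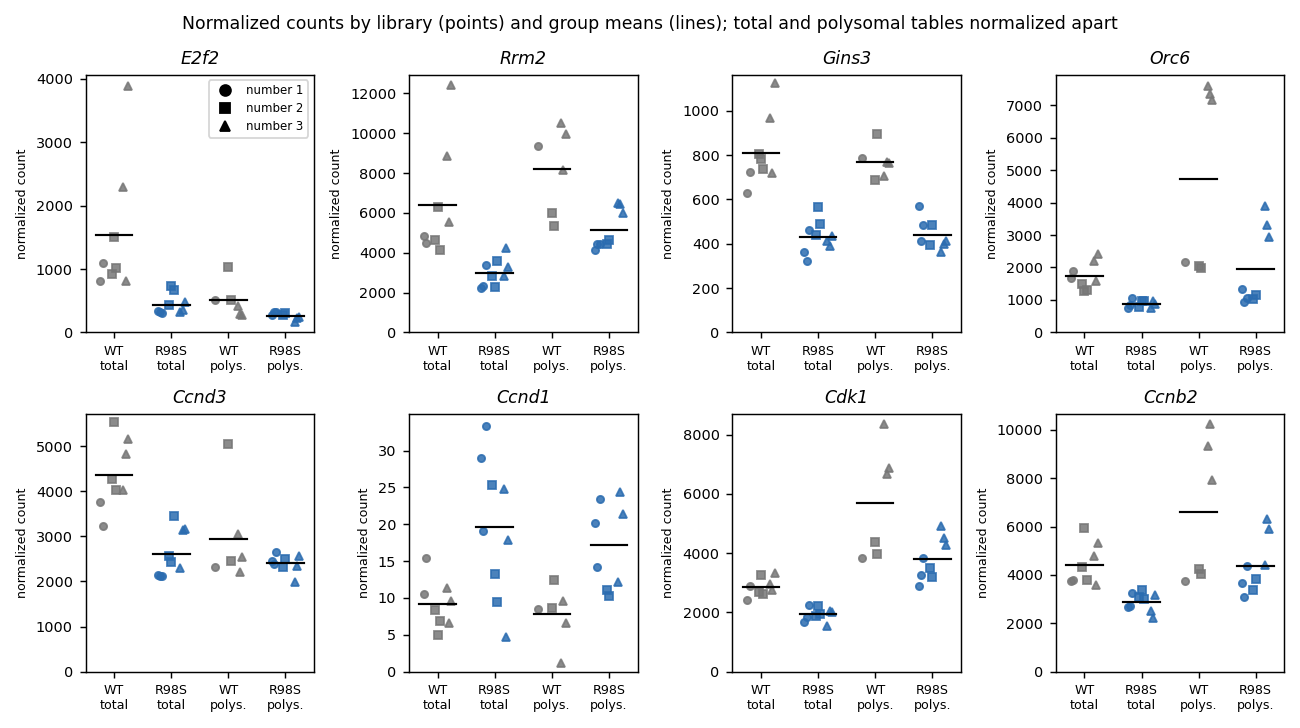
Normalized count (vertical axis, starting at 0) of 8 genes in each library, with WT in grey, R98S in blue, symbols for the replicate number and lines for group means. In total mRNA the R98S points of E2f2, Gins3, Orc6, Cdk1 and Ccnb2 all lie below the WT points, and in polysomal RNA this holds for Gins3.

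The 9 G1 genes held both directions. Ccnd3, the gene of cyclin D3, spanned 2121 to 3462 in R98S and 3236 to 5541 in WT, and 8 of 9 R98S libraries lay below every WT library. It fell from a mean of 4355 ± 767 (SD, n = 8) in WT to 2608 ± 517 (SD, n = 9) in R98S, a log2 difference of -0.74 (SE 0.13, adjusted p = 0.000385 by limma), and the difference was -0.71 within each of the 3 numbers. Ccnd1, the gene of cyclin D1, was the only gene of the 48 called higher, but it was nearly silent in these cells. Its mean was 19.6 in R98S and 9.20 in WT, so it passed the filter through the R98S libraries, where it is high, and without the filter it was not called (limma adjusted p = 0.122). Its values were 4.67 to 33.4 in R98S and 5.02 to 15.4 in WT, with 6 of 9 R98S libraries above every WT library and a log2 difference of 0.90 (SE 0.34, adjusted p = 0.0619 by limma). As few as 4 reads stood behind a value, and exons on the opposite strand overlap 23.4% of its exon length. The call held in 12 of 25 alternatives and was lost, among others, without R98S clone 11 (0.61, limma adjusted p = 0.317). Ccnd2, the gene of cyclin D2 and the other abundant D cyclin, spanned 2993 to 5485 in R98S and 3225 to 6518 in WT, and its log2 fold change of -0.17 was not called.

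Among the kinases of G1, Cdk4 (4042 to 5394 in R98S, 3959 to 6354 in WT) had a log2 fold change of -0.03 with a 95% interval from -0.23 to 0.16, and Cdk2 (1288 to 1645 against 1299 to 1983) of -0.13 with an interval from -0.33 to 0.08. Cdk6 ranged from 1466 to 3052 and from 1565 to 3859, and its value of -0.29 was not called. Ccne1, the gene of cyclin E1, was called lower at -0.47 (SE 0.20, adjusted p = 0.097 by limma), close to the threshold. Its groups overlapped fully, 463 to 838 in R98S and 451 to 1208 in WT, and within number 2 the difference was 0.05. Its call held in 14 of 26 alternatives and in 2 of 9 omissions of a clone or a number, with -0.32 without number 3 (limma adjusted p = 0.48). Ccne2 ranged from 209 to 420.3 and from 169.7 to 758 and had a log2 fold change of -0.02. Cdkn1b, the gene of the inhibitor p27, varied about as much within as between genotypes, from 689 to 2042 and from 672 to 2385, and its value of -0.32 had a 95% interval from -0.99 to 0.34.

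Of the mitotic genes, Cdk1 and Ccnb2, the genes of the mitotic kinase and of cyclin B2, separated the genotypes in all libraries. Cdk1 spanned 1541 to 2243 in R98S and 2420.3 to 3324 in WT and had a log2 difference of -0.57 (SE 0.09, adjusted p = 0.000163 by limma). Ccnb2 ranged from 2222 to 3376 and from 3587 to 5951, with a log2 difference of -0.60 (SE 0.11, adjusted p = 0.000962 by limma). Counting these, 5 of the 48 genes had every R98S library below every WT library in total mRNA, which 1.46% of all genes did. Ccnb1, of cyclin B1, fell less, by 0.41, with ranges of 1374 to 1879 and 1599 to 2530.2, a call lost without number 3. Ccna2, the gene of cyclin A2, went the other way, with 4376 to 8403 in R98S, 3670.3 to 6298 in WT and a log2 fold change of 0.30 that was not called (SE 0.15, adjusted p = 0.171 by limma). R98S clone 11 held the highest Ccna2 value within each number, at 6614, 8218 and 8403.

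The chromosome proteins Mki67 and Top2a had the highest normalized counts of the 48 genes in WT total mRNA. Mki67, the gene of the Ki-67 proliferation antigen, spanned 14165 to 20889.9 in R98S and 16182 to 45418 in WT and fell by 0.55 (SE 0.17, adjusted p = 0.0265 by limma). Top2a, of topoisomerase II alpha, ranged from 12396 to 19756 and from 13501 to 34391 and fell by 0.52 (SE 0.16, adjusted p = 0.0284 by limma). Both overlapped between genotypes, and within number 1 their differences were only -0.09 and -0.11. Among the kinases, Bub1 (882 to 1932 against 1169.8 to 2929) fell by 0.65 and Aurkb (1135 to 2128 against 1888 to 2409) by 0.40. Plk1 at 0.01 and Aurka at -0.19 were not called. The calls of Mki67, Top2a and Bub1 were lost without R98S clone 11 or number 3, those of Mki67 and Top2a also without number 2, and that of Aurkb without number 3.

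The genes did not behave alike in every number. The median over the 29 S phase genes was -0.33, -0.05 and -0.29, with 27, 17 and 23 of 29 below 0, and that over the 10 mitotic genes was -0.19, -0.43 and -0.60, with 8, 9 and 9 of 10 below 0. Over all genes tested, 51.9% in number 1 and 48.8% in number 3 were below 0. Without number 3 the genes called lower dropped from 21 to 7, without R98S clone 11 to 11 and without WT clone 28 to 14, and Ccnd1 was not called higher in any of these. Leaving out R98S clones 13 and 35 of number 2 gave 19 lower and 3 higher, and leaving out WT clone 29 of number 1 gave 19 lower and 1 higher. Of the 22 calls, 7 held under each of the 9 omissions of a clone or a number, those of E2f2, Rrm2, Gins3, Orc6, Ccnd3, Cdk1 and Ccnb2, and the other 15 were lost in at least 1 of them. With the libraries averaged to clone means, 3 against 3, 15 genes were called, and Cdt1, Gmnn, Mcm7, Rfc3, Pole, Prim1 and Ccnd1 were not.

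**Figure D3:**
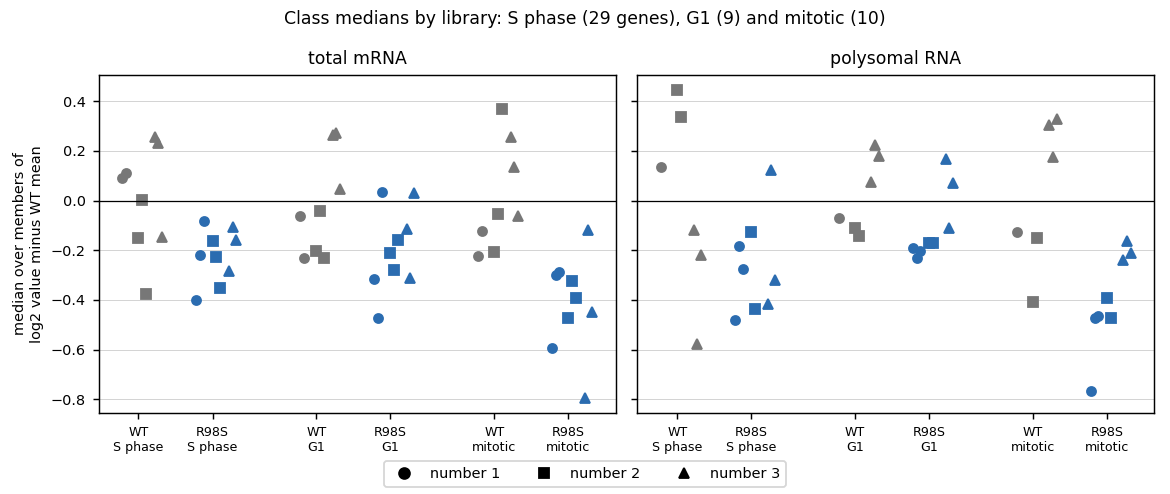
Median over the S phase (29), G1 (9) and mitotic (10) genes of the log2 value minus the WT mean (vertical axis) in each library of total mRNA and polysomal RNA, with symbols for the replicate number. Mitotic medians of R98S total mRNA lie from -0.79 to -0.12 and those of WT from -0.22 to 0.37, and in polysomal RNA the S phase medians of WT are highest in number 2 and lowest in number 3.

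The second comparison asked what reached the polysomes. In polysomal RNA, 3 of the 48 genes were called lower and 1 higher (limma, adjusted over 10707 genes), where 5.87% of all genes were called lower and 7.66% higher. The median log2 fold change was -0.28, against -0.02 over all genes, with 34 of 48 below 0. Within numbers 1, 2 and 3, 32, 38 and 30 of the 48 were below 0, against 46.6%, 52.8% and 52.3% of all genes. The 3 lower genes, Gins3, Rrm2 and E2f2, were also called lower in total mRNA, and the higher one was Ccnd1, which here too passed the filter through R98S (mean 17.1 against 7.82 in WT) and was not called without it (limma adjusted p = 0.145). With the replicate number as a block, 17 were lower and 1 higher (15.7% and 15.2% of all genes). Of these 17, 13 were among the 21 called lower in total mRNA, which is 76.5% of the polysomal and 61.9% of the total mRNA calls. The other 4 were Mcm5, Cdc45, Gins2 and Pcna. Both fractions came from the same cultures and the overlap over all genes is not given here. Nothing particular to the 48 genes is therefore read from this overlap. Without the block, 1 call was made without number 1, and 1, 2 and 1 without R98S clone 11, 13 or 35. Leaving out R98S clones 13 and 35 of number 2 gave 2, and leaving out number 3 gave 13. These counts can hold genes outside the 4, of which Gins3 alone was called under each of the 9 omissions of a clone or a number.

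Gins3 kept the clearest separation. Its polysomal level ranged from 362 to 569 (median 413) in R98S and 689.5 to 894 in WT with a median of 766. All 8 R98S libraries lay below the 6 WT libraries, which 1.92% of all genes showed, and the log2 difference was -0.81 (SE 0.14, adjusted p = 0.000974 by limma). Rrm2 spanned 4112 to 6517 in R98S and 5339.9 to 10513 in WT, with a log2 difference of -0.66 (SE 0.19, adjusted p = 0.041 by limma). Its highest R98S values, 5989.7 to 6517, were those of number 3. This call was lost without R98S clone 11, 13 or 35 (limma adjusted p = 0.103, 0.113 and 0.145), without R98S clones 13 and 35 of number 2, and without number 1 (-0.48, limma adjusted p = 0.423), and within number 2 the difference was -0.32. E2f2 ranged from 170.3 to 316 and from 268 to 1038, overlapped between genotypes and had a log2 difference of -0.80 (SE 0.27, adjusted p = 0.0735 by limma). The E2f2 call held in 2 of 9 omissions of a clone or a number, and without WT clone 28 its value was -0.53 (limma adjusted p = 0.217). Ccnd1 ranged from 10.3 to 24.4 in R98S and from 1.17, which is 1 read, to 12.4 in WT, with a log2 difference of 1.16 (SE 0.39, adjusted p = 0.0796 by limma). Within number 2 its difference was 0.04, and this call too held in 2 of 9 omissions, with 0.58 (limma adjusted p = 0.38) without number 3.

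Orc6 showed what the number does to the polysomal values. In R98S it stood at 929.9 to 1326 in numbers 1 and 2 and at 2928 to 3884 in number 3, and in WT at 1978 to 2180.4 and at 7164 to 7601. The genotypes were thus apart within every number, by -0.99, -0.89 and -1.14, yet the fit without the number gave -1.23 (SE 0.45, adjusted p = 0.105 by limma) and no call, and the fit with it gave -1.03 (limma adjusted p = 7.27e-06). Cdk1 behaved likewise, with 2885 to 4899 in R98S, 3843 to 8359 in WT and a value of -0.54 that became -0.46 with the block (limma adjusted p from 0.125 to 0.00946). Rfc3 went from -0.68 to -0.55 (limma adjusted p from 0.132 to 0.00331) and Cdt1 from -0.62 to -0.64 (limma adjusted p from 0.105 to 0.00941). Pcna ranged from 3991 to 8909.6 and from 5691 to 10486, and its value of -0.49 became -0.41 (limma adjusted p from 0.193 to 0.0477). Ccne1, from 742 to 1169 against 929.5 to 1662, went from -0.43 to -0.39 (limma adjusted p from 0.122 to 0.0189).

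Other genes held no call in polysomal RNA with or without the block. Ccnd3, which was called lower in total mRNA, spanned 1994 to 2661 in R98S and 2215 to 5052 in WT, and its log2 fold change was -0.23 with a 95% interval from -0.61 to 0.15. Mki67 (1675 to 5611 against 1072 to 5577) was at 0.23, Top2a (2551 to 7838 against 2725 to 7478) at -0.42 and Ccnb1 (1479 to 2636 against 1076 to 3937) at -0.44. Ccna2, at 2865 to 6722 and 3261 to 7188, had a log2 fold change of -0.17. The intervals of these 4 genes all included 0. Ccnd2 (1649 to 4617 against 2532 to 4369) was at -0.28, Cdk4 (5756 to 9206 against 5707 to 11698) at -0.21 and Cdk2 (1353 to 1902 against 1585 to 2109) at -0.19. Cdk6 (410.4 to 1218 against 317 to 1539.9), Cdkn1b (419.6 to 871 against 532 to 758), Ccne2 (259 to 688 against 116 to 799.8) and E2f1 (131 to 412 against 95.2 to 439.9) lay between -0.02 and 0.31.

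The third comparison set the polysomal value of each culture against its own total mRNA value. This translational efficiency (TE), the log2 polysomal minus the log2 total mRNA value, was tested over the 8 R98S and 6 WT cultures with both libraries. None of the 48 genes was called different in TE by limma, of 0.0376% of all 10627 genes called higher and 0% called lower, and 2 of the 48 had an unadjusted p under 0.05. None of the 48 was called with the replicate block either, nor by edgeR or DESeq2 on recovered reads. With that block, 5 of the 48 had an unadjusted p under 0.05. Within number 1 alone, which has 1 WT culture, 3 were called, E2f2 and Ccnd3 among them, and the block without R98S clones 13 and 35 of number 2 called E2f2. The median TE difference was 0.05, with 18 of 48 below 0. Without the block, the 2 genes with an unadjusted p under 0.05 were Ccnd3, at 0.49 (95% interval from 0.00 to 0.97, limma adjusted p = 0.835), and Ccna2, at -0.42 (95% interval from -0.79 to -0.05, limma adjusted p = 0.753). Ccnd3 held 0.633 to 1.25 as much polysomal as total signal in R98S and 0.528 to 1.26 in WT, and Ccna2 0.565 to 1.02 and 0.878 to 1.23, so both ranges overlapped.

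The intervals of TE were wide. E2f2 had the largest estimate, 0.94 (95% interval from -0.00 to 1.89), with a ratio of 0.383 to 1.03 in R98S and 0.108 to 1.03 in WT, and its difference within numbers 1, 2 and 3 was 0.98, -0.86 and 1.76. Mki67 was at 0.74 (95% interval from -0.03 to 1.52), Pole at 0.44 and E2f1 at 0.42. Cdk6 was at 0.46, Cdkn1b at 0.41, Ccnd1 at 0.40, Ccne1 at 0.07 and Ccne2 at 0.07. Cdk1 at 0.04, Ccnb1 at -0.03, Cdk2 at -0.00, Top2a at 0.06, Ccnd2 at -0.13, Cdk4 at -0.15 and Pcna at -0.25 had intervals on both sides of 0. In simulated reads without clone or number effects, changes of 1 on the log2 scale in TE were recovered in 80% of cases. Smaller differences can be missed. The measured cultures share clones and numbers, so recovery in them can be lower.

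The level of the ratio differed far more between the genes than between the genotypes. Pole (mean log2 ratio ± SD of -2.41 ± 0.27 over 8 R98S cultures and -2.85 ± 0.60 over 6 WT cultures), Mki67 (-2.24 ± 0.58 and -2.98 ± 0.92) and Top2a (-2.19 ± 0.49 and -2.25 ± 0.91) had the lowest polysomal share. At the other end in R98S were Cdk1 (0.96 ± 0.30), Gmnn (0.95 ± 0.62) and Orc6 (0.90 ± 0.91), and in WT Orc6 (1.14 ± 0.82), Rfc3 (1.13 ± 0.67) and Gmnn (1.10 ± 0.82), all within their spread of each other. These ratios are relative, since the tables were scaled apart. Pole, Mki67 and Top2a have merged exon lengths of 11160, 10061 and 9013 bases and Orc6 and Gmnn of 2469 and 1465, but Cdk1, with a high ratio, has 4934, and Lig1, with a log2 ratio of -1.45 in R98S and -1.61 in WT, has 4268. Over the 48 genes, Spearman's rho between the ratio and the merged exon length was -0.67 in R98S and -0.70 in WT, given as a description over genes that share libraries. The 24 genes with the shorter exon length had a median log2 ratio of 0.51 in R98S and 0.43 in WT, and the 24 longer ones of -0.69 and -0.85.

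**Figure D4:**
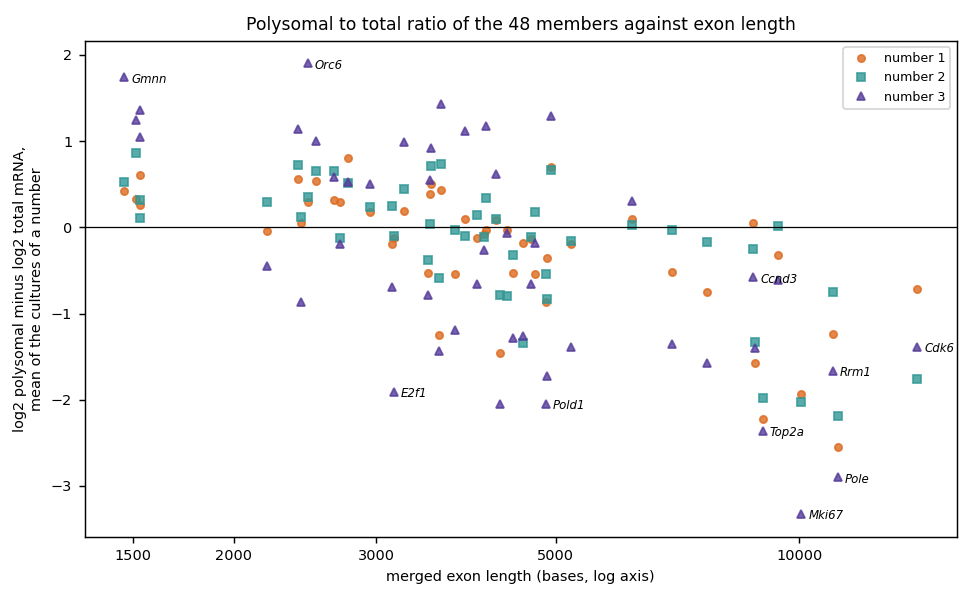
Mean log2 polysomal minus log2 total mRNA (vertical axis) of each of the 48 genes in the cultures of a replicate number, against merged exon length in bases (horizontal log axis). The symbols of number 3 spread furthest, from -3.33 for Mki67 to 1.90 for Orc6, where the same genes are at -1.93 and 0.29 in number 1.

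The ratio differed between the replicate numbers. In number 3 the ratio of Mki67 was -3.33 and in numbers 1 and 2 it was -1.93 and -2.03, whereas Orc6 stood at 1.90 against 0.29 and 0.35 and Gmnn at 1.74 against 0.42 and 0.53. E2f1 had -1.91 in number 3 and -0.12 and -0.10 in the others, and Pold1 -2.05 against -0.86 and -0.54. Among the 48 genes the rho with length was -0.69, -0.68 and -0.61 in R98S and -0.60, -0.64 and -0.65 in WT for numbers 1, 2 and 3. Over all genes it was furthest from 0 in number 3, with a rho of -0.54 in R98S and -0.51 in WT over 10126 genes with a length. In numbers 1 and 2 it was -0.34 in R98S, and -0.03 and -0.35 in WT, where number 1 has 1 culture. The part of these differences between numbers in the polysomal comparison was tested only through the block and the fits within a number.

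Per kilobase of exon, the order of levels in WT total mRNA ran from Ccnb2 at 2883 ± 564 normalized counts per kilobase (SD, n = 8), Mki67 at 2566 ± 973, Top2a at 2548 ± 786 and Rrm2 at 2314 ± 1034 down to Gins2 at 94.8 ± 19.1, Fen1 at 36.5 ± 5.28 and Ccnd1 at 1.95 ± 0.694. The leading 4 did not differ from each other beyond their spread. In R98S the order at the top changed, with Mcm3 at 2017 ± 237 and Mcm6 at 1941 ± 358 (SD, n = 9) above Ccnb2 at 1888 ± 253, again within the spread. Cyclin D3 and D2 mRNA were at 496 ± 87.5 and 482 ± 129 in WT, and at 297 ± 59.0 and 425 ± 97.7 in R98S. E2f2 stood at 316 ± 219 against 134 ± 25.7 for E2f1 in WT, and at 89.9 ± 32.7 against 128 ± 26.4 in R98S.

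The other genes of these pathways were taken from lists that hold none of the 48. Of 50 other mitotic genes, 33 were lower and 1 higher in R98S total mRNA, with a median log2 fold change of -0.41, where 15.8% of all genes were called lower and 14.5% higher. Those with the smallest adjusted p were Ckap2 at -0.66, Ccnf at -0.72, Kif23 at -0.78 and Cenpe at -0.87, genes of the spindle, of a ubiquitin ligase subunit, of cytokinesis and of the kinetochore. Of 48 other replication genes, 19 were lower and 4 higher with a median of -0.24, led by the histone chaperone genes Chaf1a (-0.58) and Asf1b (-0.71), Rnaseh2a (-0.52) and Dut (-0.60). Of 29 other G1 and E2F regulators, of which 28 were tested, 8 were lower and 0 higher with a median of -0.20. This list was led by the repressor E2F genes E2f8 (-0.95) and E2f7 (-0.85), Cdkn2d (-1.04) and Skp2 (-0.53). With the replicate block, the mitotic, replication and G1 lists held 37, 24 and 13 lower genes and 1, 7 and 1 higher. The share over all genes with that block is not given here, so nothing about the lists is read from these blocked counts.

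In polysomal RNA the number of calls in the same lists depended on the replicate block. Of the other mitotic genes 5 were lower and 1 higher, of the other replication genes 4 and 1, and of the G1 and E2F regulators 2 and 2, while with the replicate block these were 17 and 2, 21 and 3, and 6 and 4. Over all genes 5.87% were called lower and 7.66% higher without the block, and 15.7% and 15.2% with it, and nothing about the lists is read from the counts without the block. Skp2, which targets p27 for degradation, was at -0.83 (SE 0.14, adjusted p = 0.00124 by limma). Tfdp1, of the E2F partner DP1, was at -0.45 (SE 0.13, adjusted p = 0.0391 by limma). Both had all 8 R98S libraries below every WT library, which 1.92% of all genes showed. The kinase inhibitor genes Cdkn2b and Cdkn2a rose by 1.67 (SE 0.40) and 1.69 (SE 0.48) on the log2 scale (limma adjusted p = 0.0143 and 0.0367). Of the mitotic list, Ccnf fell by 0.66 (SE 0.14, adjusted p = 0.00624 by limma), with all 8 R98S libraries below every WT library, and Ckap2 and Anln fell by 0.75 and 0.72 (limma adjusted p = 0.0258 and 0.0345). Wee1, of the kinase that restrains Cdk1, was its one higher gene and rose by 0.86 (SE 0.21, adjusted p = 0.0154 by limma). Rfc2, a clamp loader subunit like Rfc3 and Rfc4, was the one higher gene of the replication list and rose by 0.93 (SE 0.19, adjusted p = 0.0041 by limma). All 8 R98S libraries lay above every WT library, a separation whose share over all genes is not given here. Cdc7, Pola2 and Rnaseh2a fell by 0.60, 0.55 and 0.65 (limma adjusted p = 0.00616, 0.0723 and 0.0812). In TE, limma called none of these listed genes, with 1, 2 and 2 unadjusted p under 0.05 among the replication, G1 and mitotic lists. With the replicate block none was called either, and these counts were 5, 4 and 5.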

How the data were processed

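Sequencing libraries were made with a stranded poly(A) kit. According to the methods of the study, the leading base was removed, rRNA and tRNA reads were removed with Bowtie2, reads were aligned to mm10 with TopHat2 2.0.11, and exon reads of good mapping quality were counted per gene. HTSeq is named in the submitters' processing notes, while the annotation and the use of strand are not given in the sources used here, so overlapping genes and pseudogenes can take or lose reads. The deposited values are a signal, read counts that the authors divided by DESeq2 size factors within each table. They were whole multiples of a step for 100% of values (within 0.01 read).

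The genes and lists were chosen with earlier results of these data known. Values were tested as log2(value + 1) in genes whose mean was at least 10, with lmFit and a trended eBayes (limma 3.58.1, R 4.3.3), two-sided, with Benjamini-Hochberg adjustment over all genes and a threshold of 0.1. TE, which the study tested with Babel, was the difference per culture, for 14 cultures. Fold changes understate low genes. Groups, clones and numbers came from the labels. Values are given for called genes and, called or not, for the G1 genes, E2f1, E2f2, Pcna, Mki67, Top2a, Ccna2, Ccnb1 and Cdk1, the rest by range, and from each other list up to 4 genes with the smallest adjusted p. Same-numbered R98S and WT libraries deviated together from their group means, with r of 0.62, 0.55 and 0.48 for total mRNA, 0.70, 0.67 and 0.87 for polysomal RNA and 0.67, 0.54 and 0.81 for TE, so the numbers pair the libraries. Alternatives were other pseudocounts, filters and scalings, the replicate block, clone means, clone as a random effect, edgeR 4.0.16 and DESeq2 1.42.0 on recovered reads, and omission of clones, numbers or libraries. On simulated reads without clone or number effects, changes of 1 on the log2 scale were recovered in 100% of total mRNA and 98% of polysomal cases. The real libraries share clones and numbers, so recovery in them can be lower. Exon lengths and overlaps came from GENCODE M21.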

Additional observations from a re-analysis of the deposited data

Results flagged for a closer look

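Single libraries stood apart from the rest of their group in 10 cases, among 192 groups of 6 to 9 libraries examined, where chance flags about 1 in 20 groups. Each had a gap to its nearest neighbour, on the log2 scale, that was large for the range of its group.

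In R98S total mRNA, Cdc6 reached 987 in clone 13 of number 3, where the other 8 libraries lay from 417 to 635, and Gmnn reached 1444 in clone 35 of number 1, against 933 to 1120.5. Prim1 was at 1496 in clone 11 of number 3, against 1239.8 to 1360.0. Pola1 was low in clone 35 of number 1, at 1544 against 1928 to 2239. In WT total mRNA, clone 36 of number 2 was the lowest library for both Pcna (2205, against 3315 to 4648) and Pold1 (1025, against 1395 to 1821).

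In polysomal RNA, R98S clone 13 of number 3 held 7838 for Top2a, where the other 7 R98S libraries lay from 2551 to 3513, and was lowest for Ccnd3, at 1994 against 2328 to 2661. WT clone 28 of number 2 was at 1076 for Ccnb1, against 2427 to 3937 in the other 5 WT libraries. Ccnd1 was at 1.17 in WT clone 28 of number 3, against 6.61 to 12.4.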

How the results depend on the processing

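Against 22 calls in total mRNA, 7 to 25 were made when a clone or a number was left out, and 10, 1 and 10 within numbers 1, 2 and 3 alone, with 15 on clone means and 18 without the filter. Against 4 in polysomal RNA, such omissions gave 1 to 13, while 2 were called without the filter, 3 on clone means, 7 with TMM scaling, 18 with the replicate block, 10 with clone as a random effect, 9 with edgeR, 9 with DESeq2, 2 without R98S clones 13 and 35 of number 2, 15 with the replicate block without those libraries (chosen after seeing the data), and 1, 1 and 14 within numbers 1, 2 and 3. The 0 calls in TE stayed 0 to 0 under omissions, and were 3 within number 1 and 1 with the block without those libraries. The block left the same 21 genes called lower in total mRNA and changed no call in TE. The sign changed under at least 1 alternative for 7 of 31 single genes in total mRNA, 11 of 19 in polysomal RNA and 15 of 17 in TE, and the cause was not tested. Depth limits Ccnd1, with 1 read in its lowest library.

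Within number 1, the log2 differences that turned were Ccne2 0.21 and Cdk2 0.019 for total mRNA, then Ccnd3 0.11, Cdk4 0.17 and Ccna2 0.12 for polysomal RNA, then Pcna 0.022, Ccnd2 0.11, Cdk4 0.46, Ccne2 -0.84, Cdkn1b -0.071 and Top2a -0.69 for TE. Within number 2, these were Pcna 0.037, E2f1 0.18, Ccnd2 0.037, Cdk4 0.15, Ccne1 0.045 and Ccne2 0.35 for total mRNA, then E2f1 -0.21, Ccnd2 0.30, Ccne2 0.98, Cdkn1b -0.063, Ccna2 0.13, Ccnb1 0.27 and Mki67 -0.35 for polysomal RNA, then E2f1 -0.26, E2f2 -0.86, Ccnd1 -0.47, Ccnd2 0.22, Ccnd3 -0.028, Ccne1 -0.39, Cdk2 0.038, Cdkn1b -0.060, Ccnb1 0.36 and Top2a -1.15 for TE. Within number 3, these were Cdk6 -0.33 and Top2a 0.42 for polysomal RNA, then Cdk6 -0.24 and Cdk2 0.14 for TE. With the replicate block, these were Ccne2 0.021 for total mRNA, then Ccne2 0.11 for polysomal RNA, then Cdk2 0.015 and Ccnb1 0.037 for TE. With that block and without R98S clones 13 and 35 of number 2, these were Cdk6 -0.17 and Top2a 0.092 for polysomal RNA, then Cdk4 0.046, Cdk6 -0.035, Ccne2 -0.095 and Cdk2 0.0048 for TE. Without those libraries and the block, these were Ccne2 0.055 for polysomal RNA, then Cdk2 0.034 for TE. Without WT clone 29 of number 1, these were Cdk4 0.018 for total mRNA, then Ccne1 -0.047, Cdk2 0.020 and Cdk1 -0.064 for TE. With quantile normalization, these were Cdk4 0.056 for total mRNA, then Ccna2 0.019 for polysomal RNA, then Cdk2 0.049 and Ccnb1 0.063 for TE. With clone means, these were Ccne2 -0.022 and Cdk1 -0.043 for TE. With clone as a random effect, these were Cdk2 0.0098 for TE.

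Where leaving out a clone or a number turned a value, the ranges were -0.22 to 0.075 (E2f1), -0.14 to 0.025 (Cdk4) and -0.26 to 0.28 (Ccne2) for total mRNA, then -0.034 to 0.64 (E2f1), -0.52 to 0.14 (Ccnd2), -0.50 to 0.011 (Ccnd3), -0.30 to 0.71 (Cdk6), -0.55 to 0.41 (Ccne2), -0.073 to 0.24 (Cdkn1b), -0.34 to 0.19 (Ccna2), -0.17 to 0.57 (Mki67) and -1.09 to 0.00026 (Top2a) for polysomal RNA, then -0.32 to 0.83 (Ccnd1), -0.22 to 0.081 (Ccnd2), -0.44 to 0.016 (Cdk4), -0.12 to 1.00 (Cdk6), -0.10 to 0.29 (Ccne1), -0.26 to 0.34 (Ccne2), -0.10 to 0.097 (Cdk2), -0.23 to 0.13 (Ccnb1), -0.17 to 0.18 (Cdk1) and -0.96 to 0.60 (Top2a) for TE.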
